A study of Mus musculus with 2 samples.

Results

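The matrix metalloproteinases (MMP), the ADAMTS proteases and the tissue inhibitors of metalloproteinases (TIMP) were described in the hearts of 2 young male mice. The members were all protein-coding genes whose symbol begins with Mmp, Timp or Adamts followed by a digit. The rule used no measured value and found 45 genes among the 22028 protein-coding genes and 55536 genes in all, of which 4 were TIMP, 22 MMP and 19 ADAMTS genes. A list of 43 symbols had been drawn up for the family, and the rule added Mmp1b and Mmp20 to it. Mmp1a, annotated as a polymorphic pseudogene and with a count of 0 in both hearts, was not a member.

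MMP and ADAMTS enzymes are zinc-dependent proteases that cut the collagens, proteoglycans and glycoproteins outside cells, and many of them also cut growth factors and receptors. They are made as inactive precursors, which furin-like convertases, plasmin or other proteases activate. TIMP proteins bind the active site and block it, and in the heart the balance of protease and inhibitor is known for its part in growth, scar formation and remodelling of the collagen network.

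Both animals were B6CASTF1/J males, from a cross of inbred strains, at an age of 25 days, with no treatment named in the labels, and 300 ng of total RNA from the heart tissue of each went into 1 library with synthetic spike-in RNAs. The libraries are biological replicates 1 and 2 and come from animals numbered 3 and 4 of a tissue bank, although both labels carry the same donor identifier. There is 1 group and no treatment, so the comparisons are those between members within a heart and between the hearts. The smallest two-sided p that sign flips of 2 hearts can give in an exact test is 0.5. No p-value is therefore given, and a difference is called larger than the spread where it has the same sign in both hearts and its mean exceeds its SD.

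The gene tables held 38253821 estimated counts over genes in replicate 1 and 40655101 in replicate 2, and the members took 0.0853% and 0.0784% of them. Levels are in TPM, an abundance per unit of transcript length scaled to a fixed total, which allows genes to be compared within a library. Where a gene has no count, the limit is 3 counts, which is 0.0784 CPM (counts scaled to a fixed total) in replicate 1 and 0.0738 CPM in replicate 2 and covers counting error only. The tissue matched its label in that the 4 cardiomyocyte markers averaged between 344 and 8557 TPM. In whole tissue, fewer cells of a type and less RNA per cell cannot be told apart.

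Of the 45 members, 22 (48.9%) stood at 1 TPM or more in both hearts, and the share among all protein-coding genes was 49.5%. The median member stood at 0.825 TPM over both hearts and the median protein-coding gene at 1.07 TPM. Another 10 members lay between 0.1 and 1 TPM and 13 lay below 0.1 TPM. Counts were 0 in both hearts for 5 members (11.1%), against 24.6% of protein-coding genes. The share of expressed members was thus near that of other protein-coding genes, and the members ranged from a mean of 57.6 TPM down to no count.

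**Figure D1:**
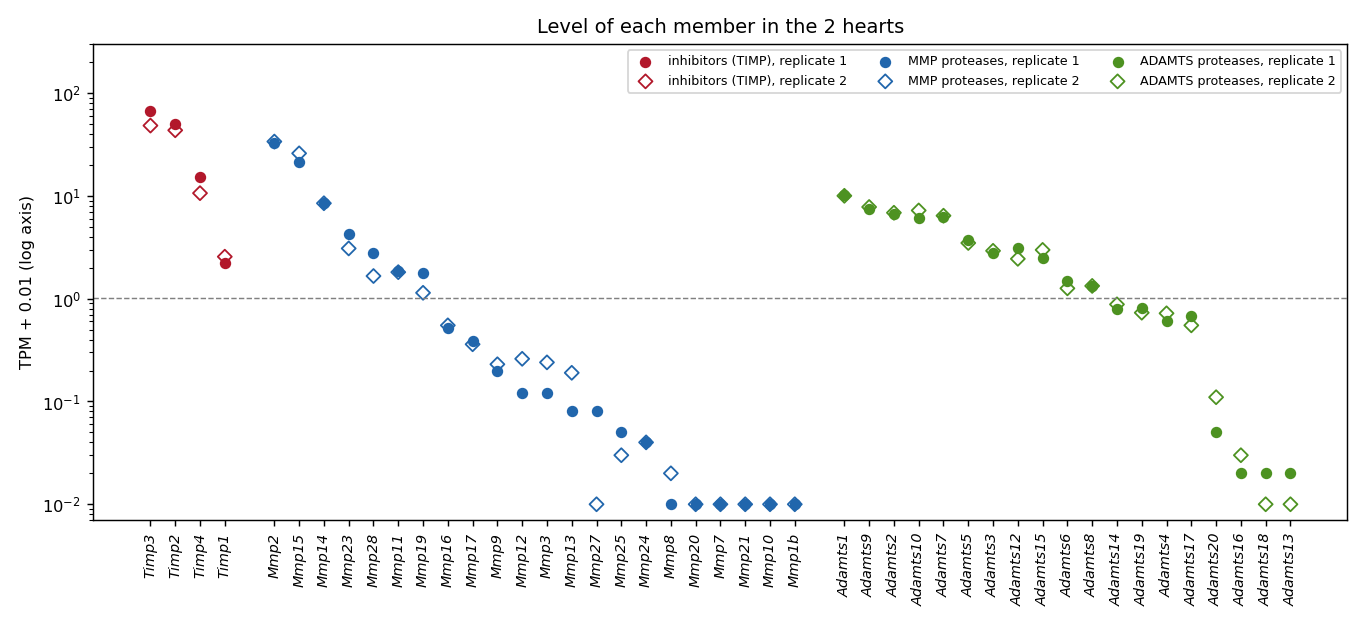
Level of each of the 45 members in replicate 1 (filled circles) and replicate 2 (open diamonds) as TPM + 0.01 on a log axis, ordered by mean within the TIMP, MMP and ADAMTS classes, with a dashed line at 1 TPM. All 4 TIMP genes, 7 of 22 MMP genes and 11 of 19 ADAMTS genes lie above the line in both hearts, and 5 MMP genes sit at 0.

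Timp3 and Timp2 were the highest of the 45 members, while Mmp2 and Mmp15 lay above Timp4 and Timp1. All 4 TIMP genes passed 1 TPM, and together they summed to 134 TPM in replicate 1 and 105 TPM in replicate 2, or 120 ± 20.9 TPM (SD, n = 2). Timp3 and Timp2 made up 87.3% ± 0.221 (SD, n = 2) of that sum, and Timp3 alone 47.9% ± 2.66.

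Timp3 (ENSMUSG00000020044.13, mm10 chromosome 10, 86300372 to 86349506, plus strand) encodes the TIMP that stays bound to the matrix and also blocks ADAM17 and the aggrecan-cutting ADAMTS enzymes. It stood at 66.9 TPM in replicate 1 (10022 counts) and 48.2 TPM in replicate 2 (7678 counts), a mean of 57.6 ± 13.2 TPM (SD, n = 2). That placed it at the 96.1st percentile of protein-coding genes, with replicate 1 the higher heart. Timp2 (ENSMUSG00000017466.9, chromosome 11, 118301069 to 118355740, minus strand) encodes the secreted inhibitor that also bridges MMP14 and the MMP2 precursor on the cell surface, a step in MMP2 activation. Its levels were 50.2 TPM in replicate 1 and 43.4 TPM in replicate 2, from 4138 and 4067 counts. In both hearts Timp3 lay above Timp2, by 0.28 ± 0.19 on the log2 scale (SD, n = 2). The order of these 2 genes depended on the quantification, since a second deposited one put Timp3 at 67.7 ± 13.6 TPM and Timp2 at 79.1 ± 5.96 TPM.

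Timp4 (chromosome 6, 115241892 to 115252205, minus strand) is known as the TIMP with high expression in heart. It followed Timp2 here, at 15.1 TPM in replicate 1 and 10.6 TPM in replicate 2, so that Timp2 exceeded it by 1.88 ± 0.21 on the log2 scale of TPM + 0.1 (SD, n = 2), and by 2.75 ± 0.17 in the second quantification. Timp1, which is known to be induced by injury and cytokines and to be a poor inhibitor of the membrane-type MMPs, was the lowest, with 2.21 TPM in replicate 1 and 2.55 TPM in replicate 2. It rested on 55 and 69 counts. Timp3 exceeded Timp1 by 4.52 ± 0.47 on that scale, and the levels of these 2 inhibitors were far apart in both hearts.

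Timp3, Timp4 and Timp1 are each annotated inside a synapsin gene on the opposite strand, and whether the counting used strand is not stated. Syn3, around Timp3, had 0.17 TPM in replicate 1 and 0.19 TPM in replicate 2. Syn2, around Timp4, stood at 1.68 and 2.09 TPM, and Syn1, around Timp1, at 0.09 and 0.13 TPM. Each host gene was thus below its inhibitor in both hearts.

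The MMP genes summed to 74.2 TPM in replicate 1 and 77.6 TPM in replicate 2 (75.9 ± 2.38, SD, n = 2), and a gelatinase and the membrane-anchored enzymes accounted for most of it. Mmp2 held 43.5% ± 0.0293 of the class sum, and Mmp2 with Mmp15 held 74.6% ± 3.24 (SD, n = 2). The 7 membrane-anchored enzymes summed to 36.7 ± 2.38 TPM, or 48.3% ± 1.63 of the class. The 3 genes grouped here as collagenases, Mmp8, Mmp13 and Mmp1b, summed to 0.07 TPM in replicate 1 and 0.19 TPM in replicate 2. Each enzyme was put in 1 group only, so this is not a sum over all enzymes that can cut collagen.

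Mmp2 (ENSMUSG00000031740.8, chromosome 8, 92827291 to 92853420, plus strand) encodes gelatinase A, which cuts denatured collagen and the type IV collagen of basement membranes and is made by fibroblasts of many organs. It stood at 32.3 TPM in replicate 1 (2363 counts) and 33.7 TPM in replicate 2 (2574 counts). The other gelatinase gene, Mmp9, known from neutrophils and macrophages, had 0.19 TPM (17 counts) in replicate 1 and 0.22 TPM (19 counts) in replicate 2. Mmp2 thus exceeded Mmp9 by 6.76 ± 0.06 on the log2 scale of TPM + 0.1 (SD, n = 2). The ratio was smaller in the second quantification, at 5.82 ± 0.07, where Mmp9 had 0.48 TPM in replicate 1 and 0.51 TPM in replicate 2, and with posterior mean estimates, at 5.79 ± 0.08. The neutrophil markers S100a8, S100a9, Ly6g and Csf3r summed to 0.79 TPM in replicate 1 and 1.07 TPM in replicate 2, with none of the 4 at 1 TPM in both hearts and Ly6g at 0. The 4 macrophage markers were each above 1 TPM in both hearts and summed to 53.5 and 51.1 TPM.

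Mmp15 (ENSMUSG00000031790.8, chromosome 8, 95352268 to 95375080, plus strand) encodes the second membrane-type MMP, and Mmp14 (ENSMUSG00000000957.11, chromosome 14, 54431612 to 54445364, plus strand) the first, the activator of the MMP2 precursor. Mmp15 stood at 21.35 TPM in replicate 1 and 25.9 TPM in replicate 2. Mmp14 stood at 8.49 TPM in replicate 1 and 8.46 TPM in replicate 2. Mmp14 was below Mmp15 in both hearts, with a log2 ratio of -1.46 ± 0.20 (SD, n = 2), and below its substrate Mmp2, with a log2 ratio of -1.95 ± 0.05.

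Mmp23, whose membrane anchor is removed by furin-like cleavage, had 4.20 TPM in replicate 1 and 3.07 TPM in replicate 2. The other 4 membrane-anchored enzymes were each below 1 TPM. Mmp16 stood at 0.51 TPM in replicate 1 and 0.54 TPM in replicate 2, and Mmp14 exceeded it by 3.78 ± 0.05 on the log2 scale of TPM + 0.1. Mmp24, best known from neurons, had 4 counts in each heart, and Mmp15 exceeded it by 7.51 ± 0.20. Mmp17 and Mmp25, which are held by a glycolipid anchor, averaged 0.365 ± 0.0212 and 0.03 ± 0.0141 TPM (SD, n = 2 each). The membrane-anchored signal was therefore that of Mmp15, Mmp14 and Mmp23 in both hearts.

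Of the remaining MMP genes 3 passed 1 TPM. Mmp28, which encodes epilysin, had 2.74 TPM in replicate 1 and 1.65 TPM in replicate 2. Mmp19 had 1.78 TPM in replicate 1 and 1.13 TPM in replicate 2. Replicate 1 was the higher heart for both. Mmp11, a stromelysin that furin activates inside the cell, had 1.84 and 1.80 TPM from 86 and 97 counts, and its gene overlaps Chchd10, a gene on the opposite strand at 589 TPM in replicate 1 and 630 TPM in replicate 2. With the strand setting not stated, reads of Mmp11 and Chchd10 in the overlap cannot be told apart. The same limit holds for Mmp19, with 162 and 107 counts. It overlaps Tmem198b on the opposite strand, with 169 counts in replicate 1 and 179 in replicate 2.

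**Figure D2:**
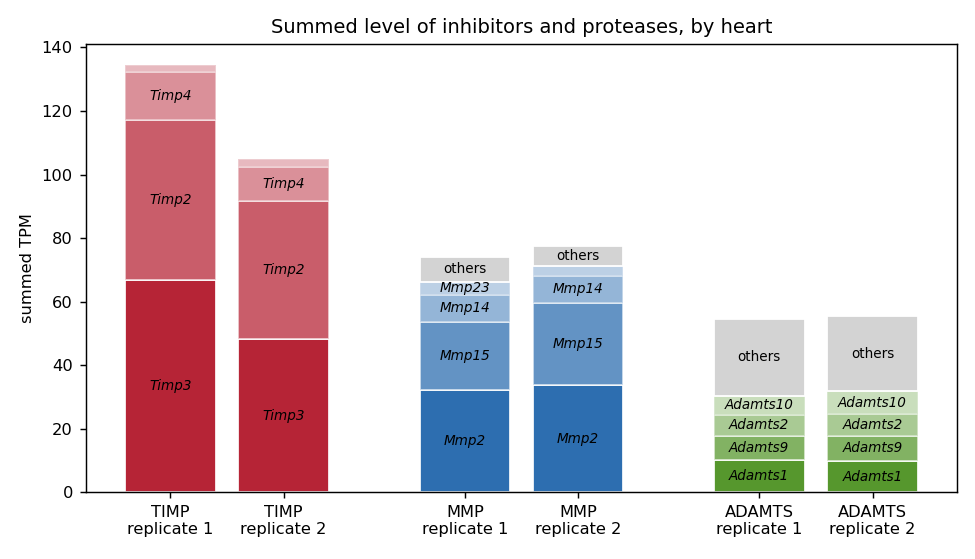
Summed TPM of the TIMP, MMP and ADAMTS genes in replicates 1 and 2, stacked by member with the 4 highest members of each class in colour and the others in grey. The TIMP bars reach 134 and 105 TPM and rest mainly on Timp3 and Timp2, the MMP bars reach 74.2 and 77.6 TPM and rest mainly on Mmp2 and Mmp15, and the ADAMTS bars reach 54.5 and 55.5 TPM with no member as prominent.

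The ADAMTS genes summed to 54.5 TPM in replicate 1 and 55.5 TPM in replicate 2 (55.0 ± 0.721, SD, n = 2), spread over more genes than in the MMP class. The highest, Adamts1, held 18.4% ± 0.511 of the class sum, and Adamts1 with Adamts9 held 32.3% ± 0.333. Of the 19 genes 11 passed 1 TPM in both hearts, and they came from 4 functional groups. Adamts13, Adamts16 and Adamts18, which lie outside these 4 groups, did not pass.

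The proteoglycanases, which cut versican and aggrecan, summed to 26.1 ± 0.311 TPM (SD, n = 2), or 47.5% of the class, and 5 of 7 passed 1 TPM. Adamts1, a versican-cutting enzyme needed for normal development of the heart wall in mice, stood at 10.2 TPM in replicate 1 and 10.0 TPM in replicate 2. Adamts9, which cuts versican at the cell surface, stood at 7.5 TPM in replicate 1 and 7.78 TPM in replicate 2. The levels of both were nearly equal in the 2 hearts. Adamts5, the main aggrecanase of mouse cartilage, stood at 3.75 TPM in replicate 1 and 3.47 TPM in replicate 2. Adamts15 had 2.49 and 2.97 TPM, and Adamts8 had 1.32 TPM in both. Adamts4, the other classical aggrecanase, had 0.60 TPM in replicate 1 and 0.71 TPM in replicate 2, and both Adamts1 and Adamts5 exceeded it, by 3.76 ± 0.17 and 2.30 ± 0.23 on the log2 scale of TPM + 0.1 (SD, n = 2 each). Adamts20, the closest relative of Adamts9 and known in mice for its part in pigment patterning, had 9 and 11 counts, and Adamts9 exceeded it by 5.53 ± 0.33, or by 4.93 ± 0.17 with posterior mean estimates.

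The procollagen N-proteinases, which remove the amino-terminal propeptide of fibrillar procollagens, summed to 10.4 ± 0.276 TPM (SD, n = 2). Adamts2, the enzyme lost in the dermatosparactic form of Ehlers-Danlos syndrome, stood at 6.71 TPM in replicate 1 and 6.84 TPM in replicate 2. Adamts3, which also activates the lymphatic growth factor VEGF-C, had 2.74 TPM in replicate 1 and 2.91 TPM in replicate 2. Adamts14 averaged 0.825 ± 0.0636 TPM, just under the 1 TPM threshold. Adamts2 exceeded Adamts3 by 1.23 ± 0.04 and Adamts14 by 2.90 ± 0.08 on the log2 scale of TPM + 0.1, so the order was the same in both hearts.

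Among the enzymes associated with fibrillin microfibrils, Adamts10, in which human mutations cause Weill-Marchesani syndrome, stood at 6.04 TPM in replicate 1 and 7.2 TPM in replicate 2. Adamts6, its closest relative, had 1.46 TPM in replicate 1 and 1.25 TPM in replicate 2, and Adamts10 exceeded it by 2.21 ± 0.32 (log2, SD, n = 2). Adamts17 and Adamts19 averaged 0.605 ± 0.0919 and 0.765 ± 0.0636 TPM. The enzymes that cut cartilage oligomeric matrix protein were both present, with Adamts7 at 6.25 TPM in replicate 1 and 6.40 TPM in replicate 2 and Adamts12 at 3.11 and 2.43 TPM. Adamts7 exceeded Adamts12 by 1.17 ± 0.27 in the same measure. The Adamts7 gene overlaps Tbc1d2b on the opposite strand, at 3.49 TPM in replicate 1 and 3.72 TPM in replicate 2. Adamts13, which cuts von Willebrand factor in plasma and is made mainly in liver, had 1 count in replicate 1 and 0 in replicate 2. Adamts16 and Adamts18 had at most 2 counts in a heart.

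**Figure D3:**
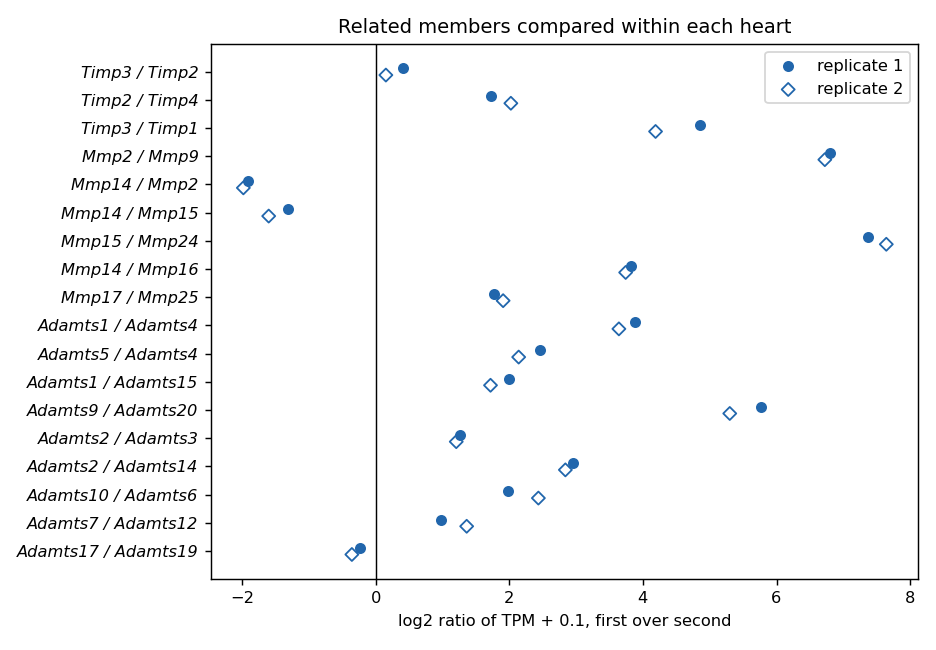
Log2 ratio of TPM + 0.1, first gene over second, for 18 pairs of related members in replicate 1 (filled circles) and replicate 2 (open diamonds), with a line at 0. The first gene is the higher in 15 pairs and the second in 3, and both hearts fall on the same side of 0 in each of the 18.

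In 18 pairs of related members the sign was the same in both hearts and the mean ratio exceeded its SD in each. The first-named gene was higher in 15 pairs and the second in 3, namely Mmp14 against Mmp2, Mmp14 against Mmp15 and Adamts17 against Adamts19, whose ratio was -0.30 ± 0.08 (log2, SD, n = 2). The order of Adamts17 and Adamts19 was not stable, since the ratio was -0.011 ± 0.22 in the second quantification and 0.42 ± 0.01 with posterior mean estimates. Ranked by mean TPM, the 22 members at 1 TPM or more formed 21 neighbouring steps, of which 10 exceeded the spread between hearts and 11 did not. The ranking came from the same 2 hearts, so these counts describe the order and do not test it. The steps from Timp3, Timp2, Mmp2 and Mmp15 to the next member each exceeded the spread. The order of Timp3 and Timp2 was reversed in the second quantification, at -0.24 ± 0.18 (log2, SD, n = 2). The step from Timp4 to Adamts1 did not exceed the spread, nor did those from Adamts2 to Adamts10 and on to Adamts7. None of the 5 steps from Timp1 down to Adamts8 did. Steps between members that are not neighbours were not counted.

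The summed TIMP level exceeded that of each protease class taken singly, but not that of both together. TIMP genes summed to 134 TPM in replicate 1 and 105 TPM in replicate 2, against 129 and 133 TPM for MMP and ADAMTS genes combined, a log2 ratio of -0.14 ± 0.29 (SD, n = 2) whose sign differed between the hearts. The log2 ratio of summed TIMP over summed MMP level was 0.86 in replicate 1 and 0.43 in replicate 2 (0.65 ± 0.30, SD, n = 2). That of TIMP over ADAMTS was 1.30 and 0.92 (1.11 ± 0.27), and that of MMP over ADAMTS was 0.44 and 0.48 (0.46 ± 0.03). These are sums of RNA levels and not of protein or enzyme activity. The ratio of MMP over ADAMTS rested on the highest members, since without Mmp2 and Adamts1 it was -0.067 ± 0.018.

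Most of the lowest MMP genes lie together. Of the 22 MMP genes 9 are within 1 Mb steps of each other on mm10 chromosome 9, between 7272514 and 7699585, in the order Mmp13, Mmp12, Mmp1b, Mmp3, Mmp10, Mmp8, Mmp27, Mmp20 and Mmp7. Together they had 22 counts in replicate 1 and 40 in replicate 2, or 0.36 and 0.67 TPM. None reached 1 TPM, and Mmp1b, Mmp10, Mmp20 and Mmp7 had no count in either heart. Mmp12, the elastase of macrophages, had the highest mean level of the 9, with 0.11 TPM in replicate 1 and 0.25 TPM in replicate 2 from 6 and 9 counts. The second quantification gave Mmp12 46.5 and 49.6 counts, or 0.37 and 0.41 TPM, so its counts are uncertain beyond the spread between hearts. Mmp21, on chromosome 7, was the only member with no count that lay elsewhere.

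Neighbouring pairs of ADAMTS genes lay at higher levels. Adamts1 and Adamts5 on chromosome 16, between 85793827 and 85901828, summed to 13.96 TPM in replicate 1 and 13.47 TPM in replicate 2. Adamts15 and Adamts8 on chromosome 9, between 30899155 and 30963838, summed to 3.81 and 4.29 TPM. All 4 of these genes passed 1 TPM in both hearts.

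The promoters of higher and lower members had different median compositions, given here as a description with no test. RefSeq promoter windows (assembly GRCm38.p6) were matched for 31 of the 45 members, of which 14 averaged 1 TPM or more and 17 less. Mmp2, Adamts10, Adamts7 and Adamts5 are among the higher members with no match. All 31 were used, although the 100 bases next to the start lay outside the gene as GENCODE annotates it in only 20. In the 250 bases upstream of the RefSeq start, the median GC content was 63.4% in the 14 higher members, 45.6% in the 17 lower ones and 52.4% over 32851 promoters. The observed over expected ratio of CpG dinucleotides was 0.567 in the higher members, 0.117 in the lower ones and 0.373 over all promoters. The lower set includes the 9 genes of the chromosome 9 cluster, which are related by descent and are not independent. GC content ran from 37.2% (Mmp10) to 45.6% (Mmp20) in the cluster and from 53.6% (Mmp21) to 79.2% (Mmp24) in the other lower members. In the higher members it ran from 53.6% (Timp4) to 78% (Adamts2 and Adamts3). The CpG ratio was at most 0.334 (Mmp8) in the cluster. It ran from 0.055 (Adamts13) to 0.982 (Adamts14) in the other lower members. The low medians of the lower set thus rested mainly on the cluster.

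The TATA box as TATAAA, the AP-1 motif as TGANTCA and the GC box as GGGCGG were searched on both strands in the 100 bases upstream of the start. No match of one of these motifs can overlap a match of another. The AP-1 motif was found in none of the 14 higher members, in 6 of the 17 lower ones (35.3%) and in 2.73% of all promoters, and the 6 were Mmp13, Mmp1b, Mmp3, Mmp10, Mmp20 and Mmp7 of the cluster. TATAAA was found in 1 of 14 higher members, in 7 of 17 lower ones (41.2%) and in 5.56% of all promoters. The 7 were these 6 cluster genes and Mmp21. The GC box was found in 10 of 14 higher members (71.4%), in 5 of 17 lower ones (29.4%) and in 24.7% of all promoters. The 5 were Adamts14, Adamts20, Mmp25, Mmp24 and Adamts18, none of them in the cluster. A match of letters is a description of sequence and not a site of binding, and no match says only that these letters are absent from the window.

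As examples, 100 bases upstream of the RefSeq start are printed below from 5′ to 3′ on the gene's strand, with motif matches in capitals. They include the 3 highest members whose window lies outside the gene as GENCODE annotates it. These are Timp4 (chr6:115252206-115252305, minus strand), Adamts1 (chr16:85803114-85803213, minus strand) and Mmp14 (chr14:54431498-54431597, plus strand). The others are the first 3 genes along the cluster that meet the same condition, all on the plus strand. These are Mmp13 (chr9:7272414-7272513), Mmp3 (chr9:7445722-7445821) and Mmp10 (chr9:7502242-7502341).
Timp4: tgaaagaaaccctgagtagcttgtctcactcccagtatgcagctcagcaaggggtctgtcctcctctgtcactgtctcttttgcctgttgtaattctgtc
Adamts1: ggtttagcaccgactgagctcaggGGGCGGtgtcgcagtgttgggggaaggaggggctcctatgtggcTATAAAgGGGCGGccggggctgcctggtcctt
Mmp14: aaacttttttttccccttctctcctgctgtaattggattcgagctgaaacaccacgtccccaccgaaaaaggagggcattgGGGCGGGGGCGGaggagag
Mmp13: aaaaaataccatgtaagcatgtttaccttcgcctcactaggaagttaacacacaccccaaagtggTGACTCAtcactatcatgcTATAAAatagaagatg
Mmp3: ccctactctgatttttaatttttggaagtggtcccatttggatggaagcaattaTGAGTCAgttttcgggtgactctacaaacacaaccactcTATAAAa
Mmp10: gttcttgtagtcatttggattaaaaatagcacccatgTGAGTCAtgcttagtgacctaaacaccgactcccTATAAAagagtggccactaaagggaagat
Each of the 3 cluster genes shown carries 1 AP-1 motif followed by 1 TATAAA nearer the start. Mmp12, Mmp8 and Mmp27 of the same cluster, which are not shown, carry neither of these motifs. Adamts1 carries 2 GC boxes and a TATAAA, Mmp14 carries 2 GC boxes in a row, and Timp4 carries none of the 3 motifs.

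The transcript tables divide each gene's level among its annotated transcripts. Of the 22 members averaging 1 TPM or more, 21 have several transcripts and Adamts5 has 1. The same transcript led in both hearts in 18 of the 21, and it held over 50% in both hearts in 17. Timp3-201 held 97.7% ± 1.12, Mmp15-201 97.9% ± 0.339 and Adamts15-201 97.6% ± 1.76 of their gene's TPM (SD, n = 2 each). The leader was the same in both hearts and both quantifications in 16 of the 21. The same counts over all protein-coding genes with several transcripts are not given here, so these counts describe the members only.

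Among the inhibitors, those other than Timp3 were less settled. Timp2-201, of 3709 bases, held 63.6% in replicate 1 and 68.4% in replicate 2, and the 718-base Timp2-202 held the rest. In the second quantification Timp2-201 averaged 45.8% and Timp2-202 led, and this is the gene whose total moved above that of Timp3 there. Timp4-201 held 55.4% and 62.5%, and 82.1% on average in the second quantification. Timp1-202 held 51.6% and 72.9%, against an average of 26.5% in the second. The shares of these Timp transcripts are therefore uncertain beyond the spread between hearts. Shares of some protease transcripts moved as well. Mmp2-201 averaged 67.8%, and 81.5% in the second quantification, and Adamts1-201 averaged 84.2% and 63.5%. Adamts2-201 stayed close, at 86.2% and 86.6%.

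Transcripts not annotated as protein-coding, such as retained-intron and nonsense-mediated decay forms, took a median of 10.9% of the TPM of the 21 members and of 9.26% over all such protein-coding genes. They held 50% or more in both hearts in 2 of the 21, Adamts10 and Adamts6, and in 7.19% of the 10204 protein-coding genes with several transcripts. In Adamts10 the share was 74.0% in replicate 1 and 62.0% in replicate 2, and in the second quantification it averaged 69.7% ± 5.48 (SD, n = 2). In Adamts6 it was 81.0% and 58.9%, and 73.4% ± 20.7 in the second. Most of the level of these related genes was thus assigned to forms not annotated as protein-coding. Most of the 15 annotated transcripts of Adamts10 and of the 7 of Adamts6 are of such forms. Mmp2 lay at the other end, with a share under 1% in both hearts. Timp2, Timp4 and Timp1 have only protein-coding transcripts annotated, so their share of 0 was fixed by the annotation and is not a result.

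**Figure D4:**
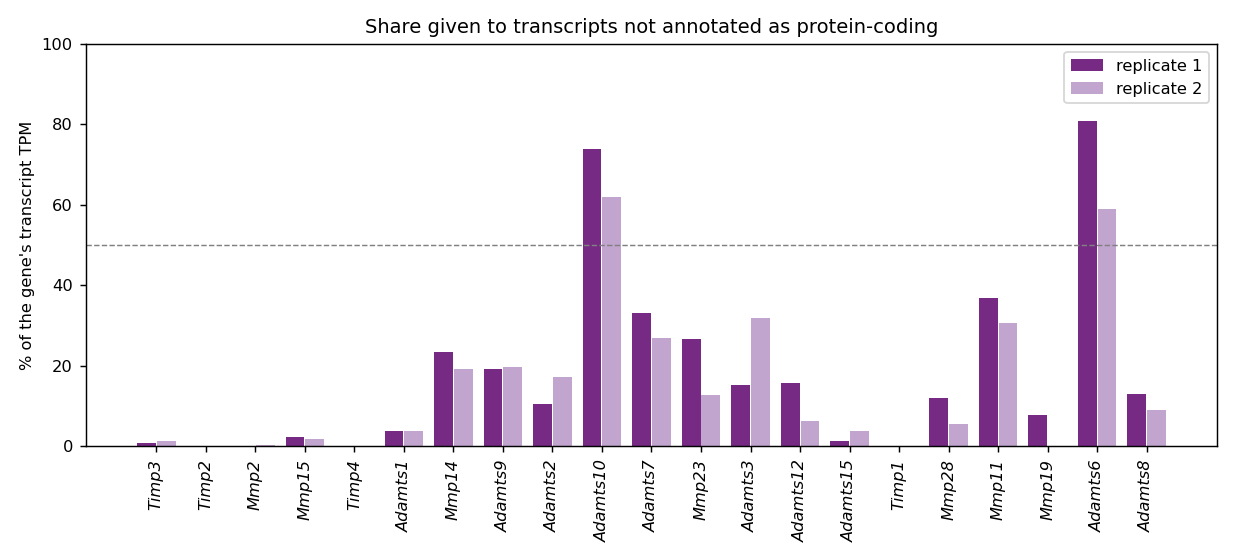
Percent of each gene's transcript TPM assigned to transcripts not annotated as protein-coding, in replicate 1 (dark bars) and replicate 2 (light bars), for the 21 members averaging 1 TPM or more with several transcripts, ordered by level, with a dashed line at 50%. Adamts10 and Adamts6 are above the line in both hearts and the other 19 are below it in both.

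Between the hearts, 28 members averaged 1 CPM or more and could be compared on counts scaled by TMM factors, and 17 were below that level. None of the 28 differed by 2-fold or more, against 1.22% of 12910 genes (157 genes). At 1.5-fold 2 members passed, against 4.54% of all genes in either direction and 2.96% higher in replicate 1. Without a filter on low counts 40 members could be compared and 3 passed 2-fold, against 5.02% of genes, namely Mmp3 (6 and 14 counts), Mmp13 (6 and 16) and Mmp25 (6 and 3). With 1 library per animal these values have intervals for counting error only and no replicate test.

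Both members past 1.5-fold were MMP genes and were higher in replicate 1. Mmp28 had 246 counts in replicate 1 and 156 counts in replicate 2, and its log2 ratio was 0.80 (exact binomial 95% interval 0.50 to 1.10). Mmp19 had 162 counts in replicate 1 and 107 counts in replicate 2, and its log2 ratio was 0.74 (0.38 to 1.10). Ratios at least as far from 0 were seen in 2.22% and 2.64% of all genes. In the second quantification Mmp28 had 0.71 and Mmp19 had 0.47.

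Of the 4 inhibitors 3 were also higher in replicate 1, by less than 1.5-fold. The log2 ratio was 0.52 for Timp3 (0.48 to 0.57), 0.41 for Timp4 (0.31 to 0.51) and 0.16 for Timp2 (0.10 to 0.23). For Timp1 it was -0.19, with an interval from -0.73 to 0.34. Ratios at least as far from 0 as that of Timp3 were seen in 6.05% of all genes. On the other side, Mmp15 had a log2 ratio of -0.25 (-0.31 to -0.19), a distance that 22.1% of genes reached. Mmp2 and Mmp14 differed little, at 0.016 (-0.065 to 0.097) and 0.0022 (-0.16 to 0.17).

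The interval excluded 0 for 11 of the 28 members, 8 of them higher in replicate 1 and 3 lower, against 33.2% of all 12910 genes. The 8 were Mmp28, Mmp19, Timp3, Timp4, Mmp23, Adamts12, Timp2 and Adamts5, and the 3 were Mmp15, Adamts15 and Adamts10. The median log2 ratio was 0.06 over the members and -0.01 over all genes kept, and the spread between the hearts over all genes, as a biological coefficient of variation, was 0.109. Scaling by the spike-ins instead moved the median of all genes to 0.13 and that of the members to 0.21. Under spike-in scaling the interval excluded 0 for 16 members, 15 higher in replicate 1 and 1 lower, against 45.9% of all genes. Adamts10 and Adamts15 then no longer excluded 0, and Mmp15 was the member still lower.

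**Figure D5:**
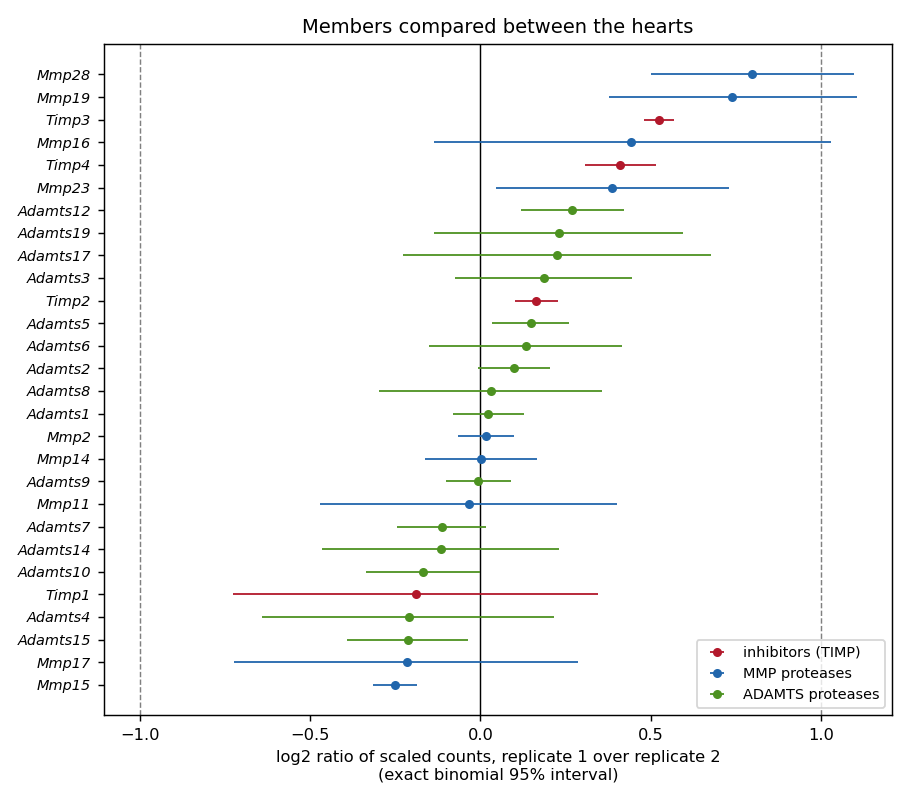
Log2 ratio of scaled counts, replicate 1 over replicate 2, for the 28 members averaging 1 CPM or more, with exact binomial 95% intervals and dashed lines at 2-fold. No point reaches a dashed line, Mmp28 and Mmp19 lie farthest to the right at 0.80 and 0.74, and Mmp15 lies lowest at -0.25.

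Markers of several cell types moved between the same hearts. The 3 adipocyte markers, each above 1 TPM in both hearts, summed to 213 TPM in replicate 1 and 29.96 TPM in replicate 2, and the 3 erythroid markers to 31228 and 15870 TPM. The 3 smooth muscle markers summed to 33.8 and 25.97 TPM and the 4 fibroblast markers to 239 and 217 TPM. The 4 endothelial markers summed to 132 and 149 TPM, and the 3 pericyte markers to 106 and 123 TPM. Of the 4 cartilage markers, 1 passed 1 TPM in both hearts, Matn3 was at 0 and the sums were 2.60 and 2.69 TPM. Their part in the differences of Timp3, Timp4, Mmp28, Mmp19 and Mmp15 was not tested.

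Most of the genes listed as related to the members were also expressed. In 6 lists of 61 activators, other inhibitors, related proteases and substrates, 48 (78.7%) stood at 1 TPM or more in both hearts, against 49.5% of protein-coding genes. The lists were chosen with earlier results of these data known, so the higher share is a description of the lists and not a test.

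Among the activators 6 of 8 passed 1 TPM. Furin, the convertase that cuts the precursors of membrane-type MMPs and of many ADAMTS enzymes, led with 40.9 TPM in replicate 1 and 37.9 TPM in replicate 2. Pcsk6, a related convertase, averaged 15.2 ± 1.65 TPM and the plasminogen activator Plat 6.57 ± 0.361 TPM (SD, n = 2 each). Plasminogen itself, Plg, a liver product, averaged 0.005 TPM. Of 10 genes listed as other inhibitors, not all of which encode inhibitors of MMP or ADAMTS enzymes, 7 passed. The highest were the cathepsin inhibitor Cst3 (327 ± 13.1 TPM) and Serpinh1 (123 ± 16.7), a collagen chaperone. Serpine2 (6.73 ± 0.0778), an inhibitor of thrombin and plasminogen activators, followed. The lowest was Spock1, at 0.05 TPM.

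The ADAMTS-like genes encode proteins with the ancillary domains of the family and no protease domain, and 5 of 6 passed 1 TPM. Adamtsl5 averaged 23.6 ± 2.86 TPM, Adamtsl4 19.0 ± 0.219 TPM and Adamtsl2 7.16 ± 0.445 TPM (SD, n = 2 each). Adamtsl5 and Adamtsl4 were thus above every ADAMTS protease gene, the highest of which was Adamts1 at 10.1 ± 0.148 TPM. The lowest, Adamtsl1, averaged 0.95 TPM. Of the 7 ADAM sheddases 5 passed, with Adam19 at 27.2 ± 1.07 TPM, Adam15 at 19.4 ± 0.820 TPM, and Adam17, a target of TIMP3, at 16.4 ± 1.499 TPM. Adam8 was the lowest at 0.195 TPM.

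Of 9 other matrix proteases 7 passed 1 TPM, led by the lysosomal cathepsins Ctsb (144 TPM) and Ctsl (89.4 TPM) and the serine protease Htra1 (41.4 TPM), with Tll2 lowest at 0.12 TPM. Of 21 substrates and partners 18 passed. Bsg, the cell-surface inducer of MMPs, averaged 427 TPM, the basement membrane collagen Col4a1 184 TPM and the fibrillar collagen Col3a1 159 TPM, and Ncan, a proteoglycan of the nervous system, was the lowest at 0.015 TPM.

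Between the hearts, 2 of the 53 related genes compared differed by 2-fold or more, against 1.22% of all genes. Fn1, which encodes the adhesive matrix protein fibronectin, stood at 80.3 TPM in replicate 1 and 31.35 TPM in replicate 2, and its log2 ratio was 1.40 (95% interval 1.35 to 1.44). Plaur, the urokinase receptor, had 55 and 30 counts and a log2 ratio of 1.01 (0.35 to 1.71). Both were named after their values were seen.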

How the data were processed

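Total RNA sequencing of 2 hearts was analysed as 1 group of 2 libraries. For each heart the authors deposited estimated counts and TPM per gene and per transcript, and the percent that a transcript takes of the level of its gene. The authors also deposited a second quantification per transcript, again as estimated counts and TPM. The first tables came from an alignment to the transcriptome and the second from a read file, with the mm10 assembly and GENCODE M21, per the text files the authors deposited. The column names are those written by RSEM and kallisto, and which tools, versions and strand setting were used is not given in the sources at hand. Reference alleles and those of the other parental strain were not separated.

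Symbols, biotypes and coordinates came from GENCODE M21 by gene identifier, and promoter windows from RefSeq. The 26248 transfer RNA rows (3.0 and 1.85 counts in replicates 1 and 2) and the spike-ins (0.505% and 0.577% of counts) were left out of library sizes. Second-quantification levels are TPM summed over a gene's transcripts. Ratios of 2 members used TPM + 0.1. Between the hearts, estimated counts were rounded to whole numbers and scaled by TMM factors (edgeR 4.0.16, R 4.3.3; DESeq2 1.42.0 size factors as an alternative), and genes averaging 1 CPM were kept. The TMM scaling and the ratio between the hearts were tested on simulated counts. Other steps ran in Python 3.11.15 with scipy 1.17.1, pandas 2.3.3, numpy 2.4.6 and, for figures, matplotlib 3.10.9. Transcript shares were recomputed from TPM and differed from the deposited percents by at most 0.225 points in replicate 1.

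Members averaging 1 TPM or more, or differing 2-fold between hearts, were named with their values, the others by range, by count or in the pairs and clusters they belong to, and in each list of related genes the 3 highest and the lowest. The members, lists, pairs and alternatives were chosen with earlier results of these data known. Posterior mean estimates, other scalings, filters, thresholds and pseudocounts, and leaving out each heart, were tried.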

Additional observations from a re-analysis of the deposited data

How the results depend on the processing

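The median member level, 0.825 TPM, was 1.08 TPM with posterior mean estimates, 0.998 TPM in the second quantification, 2.22 TPM when TPM were rescaled over nuclear protein-coding genes, 2.56 TPM over members at 0.1 TPM or more, and 0.81 to 0.87 TPM with 1 heart left out. The log2 ratio of summed MMP over ADAMTS was 0.41 in the second quantification, 0.73 over protein-coding transcripts alone and -0.067 without the highest member of each class. That of TIMP over ADAMTS was 1.45 over protein-coding transcripts and 0.46 without the highest members. For TIMP over MMP and ADAMTS combined it was 0.11 ± 0.29 in the second quantification, 0.039 ± 0.31 over protein-coding transcripts and -0.51 without the highest members. This combined ratio was added after seeing the data, like the count of intervals under spike-in scaling. Timp3 over Timp2 reversed to -0.24 in the second quantification, and Adamts17 over Adamts19 to 0.42 with posterior mean estimates, and the cause was not tested. Without a filter on low counts 3 of 40 members (Mmp3, Mmp13 and Mmp25) differed 2-fold between the hearts, against 5.02% of all genes, and at 1.5-fold 2 did. The members' median log2 ratio between hearts, 0.06, was 0.21 with spike-in scaling, 0.012 with total counts and 0.12 without a filter. Over members at 5 TPM or more, 10 of 11 shared their leading transcript. Ratios over members near 0 moved with the pseudocount, and Mmp15 over Mmp24 was 4.57 with 1 and 9.20 with 0.01. With 1 heart left out the ranges were 0.43 to 0.86 for TIMP over MMP, 0.92 to 1.30 for TIMP over ADAMTS, -0.34 to 0.062 for TIMP over both and 0.44 to 0.48 for MMP over ADAMTS. No paired analysis was possible because the labels give 1 group. Low counts limit the members below 0.1 TPM, and 2 hearts limit every spread.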
